A study of Mus musculus with 36 samples.

Results

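The genes described here were 44 cell cycle and DNA replication genes, chosen by gene name from the 22761 genes measured in the series, and all 44 were found. By role they comprised 9 genes of replication licensing and the replicative helicase, 4 of DNA synthesis, 10 mitotic cyclins and kinases, 13 genes of the spindle, the centromere and mitotic exit, 6 G1 cyclin and E2F genes, and 2 inhibitors of cyclin-dependent kinases. RNA-seq was performed on 36 sorted samples, 4 in each of 9 groups. The ex-fetu groups were ureteric bud (UB), nephron progenitors (NP) and progenitors of the stroma (SP) from CD1 mouse kidneys at E11.5 and at E12.5, each sample pooling the kidneys of all embryos of one mouse. The other groups were made from mouse embryonic stem cells (mESC): ES-derived ureteric bud (eUB, labelled iUB) from the Sox9-mCherry-mESC line, and the corresponding populations of nephron progenitors (iNP) and of stroma (iSP) from E14 mESC, each sample being one batch of differentiated embryoid bodies. UB cells were sorted as RET+/EpCAM+, eUB cells as EpCAM+/mCherry+, NP and iNP as ITGA8 high and PDGFRA low, and SP and iSP as ITGA8 low and PDGFRA high, these last 4 kinds after cells positive for CD31 or EpCAM/RET had been gated out. NP and SP were thus split by a gate on the same pair of antigens. The sorted eUB were also limited to mCherry+ cells of a single reporter line, and no ex-fetu group carried that reporter. The labels tie that reporter to Sox9, whereas the study also describes the making and sorting of a Sox8-mCherry line, so which gene marked the sorted eUB is unsettled. The E11.5 and E12.5 UB samples carried conflicting labels: the age in the title and cell type was the opposite of the age given as the source of the cells. Groups here follow the titles, and with the other label the E12.5 UB against E11.5 UB differences would change sign, and each UB comparison named by one age would belong to the other.

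A dividing cell passes through G1, DNA synthesis (S phase), G2 and mitosis. In G1, D-type cyclins and then E-type cyclins activate kinases that release E2F transcription factors from inhibition, and E2F factors switch on genes of replication. Origins are licensed in G1 when CDC6 and CDT1 load the MCM2-7 helicase, the helicase is activated in S phase, and genes of mitosis are switched on later, from late S phase through G2, largely through promoters with CCAAT boxes and cell cycle homology regions. In the developing kidney, ureteric bud tips, nephron progenitors and stromal progenitors are all dividing populations.

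Levels are given as normalised CPM, the count of a gene scaled to the total count on genes, after the authors' scaling between libraries. Libraries held 13 to 52.5 M reads on genes, so that 3 reads corresponded to 0.0605 to 0.223 normalised CPM. The summed level of 8 ureteric bud markers was at least 2110 in UB and eUB libraries and at most 329 elsewhere. The marker lists include the sort antigens (Ret, Epcam, Itga8 and Pdgfra), so part of their match to the labels was set by the gates. The sum of 8 nephron progenitor markers was at least 1150 in ex-fetu NP and 513 to 766 in iNP. It was 311 to 334 in iSP and 134 to 191 in E11.5 SP. Summed stroma markers were at least 1930 in ex-fetu SP and 1170 to 1290 in iSP, against 583 to 710 in iNP and 450 to 470 in E11.5 NP. In libraries iNP 1 and iNP 2 the stroma sum was above the nephron progenitor sum (710 against 677, and 583 against 513). Summed markers of 7 macrophage genes were 39.9 to 89.6 in ex-fetu UB and at most 2.07 elsewhere, with all 7 genes detected in both UB groups and Cx3cr1 and Tyrobp at 0 in all eUB libraries. Summed erythroid markers were 81.9 to 2780 in ex-fetu SP and at most 0.0483 in iSP, and summed endothelial markers were 47.9 to 105 in iNP and iSP, although CD31+ cells had been gated out. Several libraries stood apart. Library E12.5 UB 1 held markers of other cell types (nephron progenitor markers 349 against 31.1 to 42.6 in the other 3), libraries E12.5 SP 1 and E12.5 NP 1 were high in dissociation stress genes (7710 and 2150), and libraries eUB 1, E12.5 NP 2, E11.5 SP 4 and iNP 2 were low in long mRNAs relative to their groups. Dissociation stress genes were also higher in every eUB library (4410 to 7270) than in any ex-fetu UB library (2100 to 2900). The part of these markers and stress genes in the results was not tested.

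All groups expressed the whole set. Of the 44 members, 43 reached at least 5 normalised CPM in every library, and the exception was Cdkn2c. Per kb of transcript, the mean of the 9 group means was highest for Pcna, the sliding clamp of DNA polymerase (129 normalised CPM per kb), followed by Mcm7 (109), Mcm5 (106), Mcm3 (105), Rrm2 (103) and Ccnd1 (99.9). The lowest were Cdkn2c (0.955), Ccne2 (7.62) and Cenpf (8.13). The clamp, helicase subunits, Rrm2 (ribonucleotide reductase) and cyclin D1 were therefore the most abundant messages of the set per unit of length, and a kinase inhibitor the least.

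Differences between groups were moderate for most members. The highest group mean was a median of 1.98 times the lowest, and it was 8.63 times for Cdkn2c, 5.17 times for Ccnd1, 4.36 times for Ccnd3, 4.22 times for Ccne2 and 2.90 times for Cdk1, against 1.25 times for Bub1. The roles sorted differently over the groups. Of the 9 licensing and helicase genes, 8 had their highest mean in E11.5 NP, whereas 8 of the 10 mitotic cyclins and kinases were highest in iNP and 9 of the 10 were lowest in E11.5 UB (5) or E11.5 NP (4). For these mitotic genes iNP was close to iSP, with a median log2 difference of 0.08 and 1 of 10 called (10%, beside 30.7% of all genes). Both inhibitors were highest in iSP and lowest in E11.5 NP. In bulk RNA, fewer cycling cells and less of these RNAs per cell cannot be told apart, and neither can a change in the length of a phase.

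The first question was whether mESC-derived progenitors carried cell cycle RNAs at the level of the E11.5 cells they were made to resemble. Differences are on the scale of log2(normalised CPM + 1), with standard errors from limma over the 8 libraries of a comparison, and a member is called higher or lower where its p adjusted over all genes tested was under 0.05. Replicates were separate pools or batches, so p covers the spread between these samples. In eUB against E11.5 UB, 32 members were called, 24 higher and 8 lower, or 72.7% of the 44, beside 60.5% of all 13956 genes tested (32.1% higher and 28.5% lower). In iNP against E11.5 NP, 32 were called, 20 higher and 12 lower, or 72.7%, beside 64.7% of all genes, 35.5% higher and 29.2% lower. In iSP against E11.5 SP, 23 were called, 15 higher and 8 lower, or 52.3%, beside 67.6% of all genes, 35.5% higher and 32.1% lower. Most genes of these cells thus differed, and the share of members called was above the share of all genes in eUB and iNP and below it in iSP. These shares were not matched for level. Of the 44 members, 43 reached at least 5 normalised CPM in every library, whereas a gene was tested if it reached 1 in 4 libraries. The excess in eUB was on the higher side, where 54.5% of members and 32.1% of all genes were called. In iNP the higher side held 45.5% of members and 35.5% of all genes. In iSP it held 34.1% of members, near the 35.5% of all genes. These counts include Cdkn2c, which passed the filter on low values only with the ES-derived libraries, where it was high; without it 31, 31 and 22 of 43 members were called in eUB, iNP and iSP. The median difference over the 44 members was 0.26 in eUB, 0.11 in iNP and 0.02 in iSP, against 0.02, 0.07 and 0.04 over all genes. The libraries of both groups did not overlap for 28 of 44 members in eUB (21 higher and 7 lower), beside 56.1% of all genes, 28.9% higher and 27.2% lower. In iNP they did not overlap for 30 (18 and 12), beside 62.4% of all genes, 33.7% higher and 28.8% lower. In iSP they did not overlap for 20 (12 and 8), beside 62.2% of all genes, 32.7% higher and 29.4% lower. Without Cdkn2c these counts were 27, 29 and 19 of 43.

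Roles went different ways. Mitotic cyclins and kinases were called higher in 9 of 10 (eUB), 8 of 10 (iNP) and 7 of 10 (iSP), or 90%, 80% and 70% beside 32.1%, 35.5% and 35.5% of all genes, and lower in none. Licensing and helicase genes were called lower in 4 of 9 (eUB), 8 of 9 (iNP) and 4 of 9 (iSP), or 44.4%, 88.9% and 44.4% beside 28.5%, 29.2% and 32.1% of all genes. They were called higher in 3 of 9 in eUB (33.3%, close to the 32.1% of all genes) and in none in iNP and iSP. The inhibitor Cdkn1b was called higher in all 3. Leaving Cdkn2c aside, 13 of 43 members were called the same way in all 3 comparisons, beside 27.4% of the 12780 genes tested in all 3. Of these members 11 were higher and 2 lower, beside 14.8% and 12.7% of genes: Ccnb1, Cdk1, Aurka, Aurkb, Plk1, Bub1b, Ttk, Top2a, Ube2c, Kif20a and Cdkn1b were higher, and Mcm7 and Cdc6 were lower. Another 5 of 44 members (Mcm2, Cdt1, Ccnd1, Ccne1 and Ccne2) were called in opposite directions in different cell types, beside 13.1% of all genes, and 4 (Tyms, Bub1, Mki67 and Cenpe) were called in none, beside 10%. Of the 13 shared members, 12 were called under each alternative analysis. Ube2c, the ubiquitin-conjugating enzyme of the anaphase-promoting complex, lost its call under 10 of 19 alternatives in eUB and 1 of 20 in iSP.

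**Figure D1:**
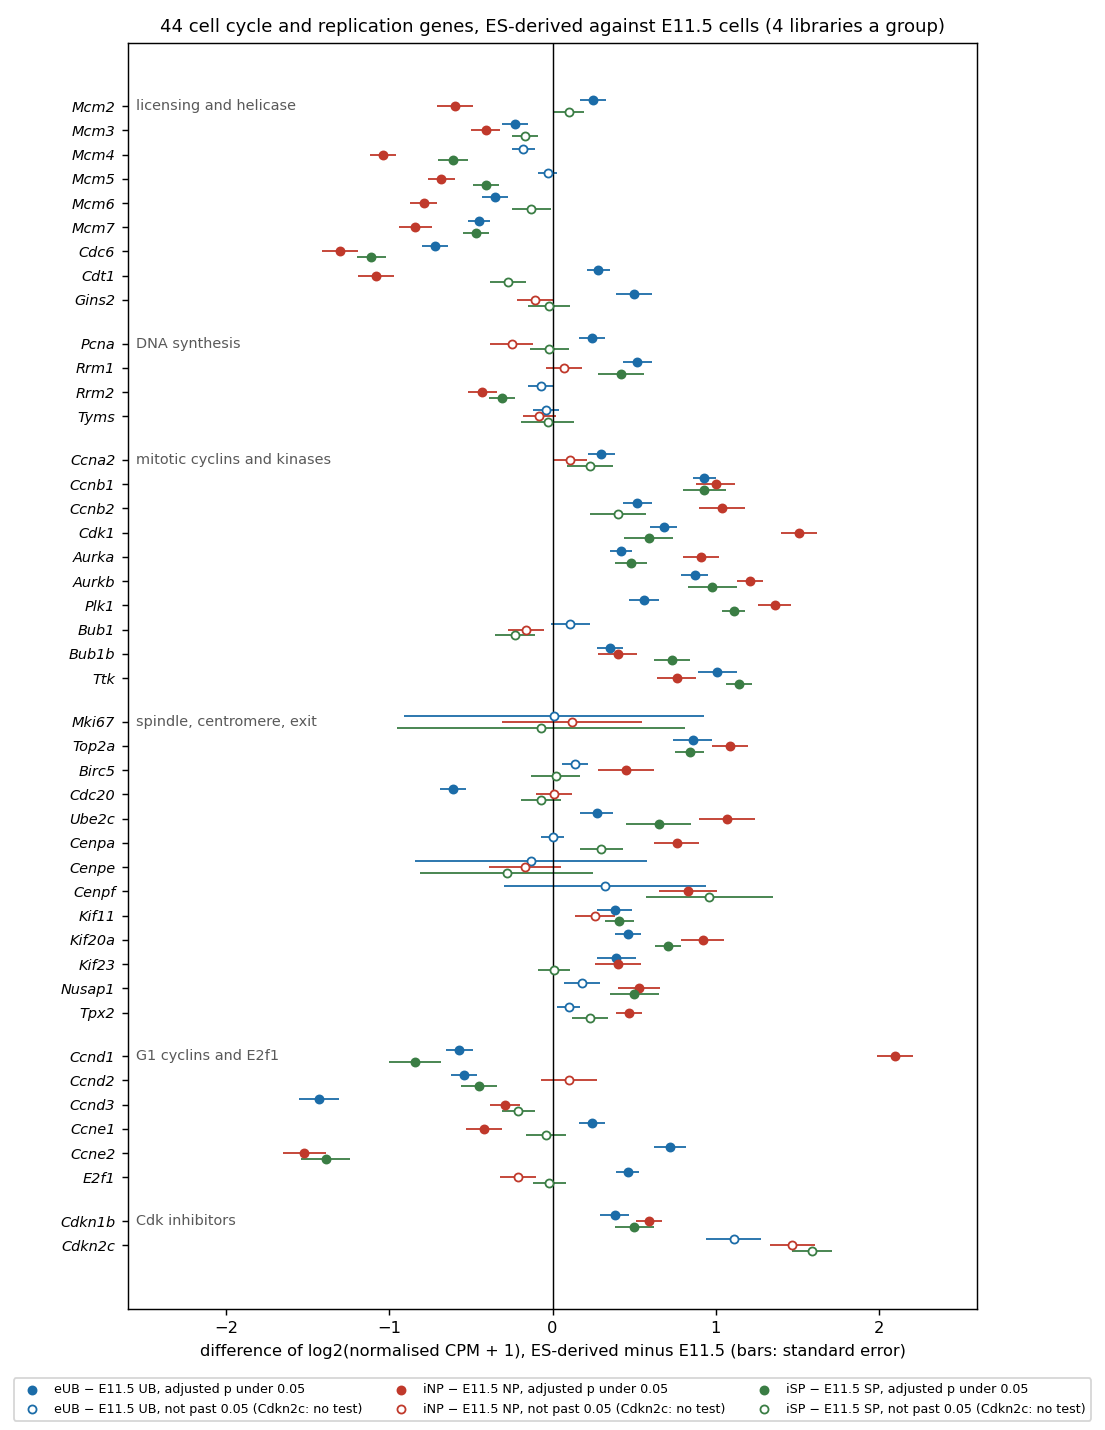
Difference of each of the 44 members between ES-derived and E11.5 cells on the log2(normalised CPM + 1) scale (horizontal axis), for eUB (blue), iNP (red) and iSP (green), 4 libraries a group. Points are fitted differences, bars are standard errors and filled points passed an adjusted p of 0.05 (Cdkn2c, for which no test is given, is drawn open). Mitotic cyclins and kinases lie mostly to the right of 0, licensing genes of iNP lie to the left, and Ccnd1 spans from -0.84 in iSP to 2.10 in iNP.

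The promoters of members that were higher or lower in all 3 ES-derived populations are shown first, to set their sequence beside the values that follow. RefSeq promoters (GRCm38.p6) were matched for 35 of the 44 members, 38 promoters in all. Below are the 150 bases before the RefSeq start of 4 genes that were higher and of 2 that were lower (Mcm7 has a pair of starts), 5′ to 3′ on the gene's strand. Capitals mark CCAAT (or ATTGG, its reverse complement), the cell cycle homology region TTTGAA or TTCGAA (or TTCAAA), and the E2F cores TTCCCGC or TTGGCGC or TTCGCGC or TTGCCGC with their reverse complements.
Cdk1, the main mitotic kinase (chr10:69352913-69353062, minus strand): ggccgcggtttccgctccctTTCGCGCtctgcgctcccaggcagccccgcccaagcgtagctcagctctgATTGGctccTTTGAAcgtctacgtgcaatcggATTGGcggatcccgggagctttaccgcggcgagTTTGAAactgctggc
Ccnb1, cyclin B1, the partner of CDK1 (chr13:100786487-100786636, minus strand): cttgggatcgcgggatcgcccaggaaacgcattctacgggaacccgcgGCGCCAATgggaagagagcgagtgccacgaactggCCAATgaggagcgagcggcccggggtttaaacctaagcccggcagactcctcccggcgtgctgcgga
Plk1, a kinase of mitotic entry and spindle assembly (chr7:122159285-122159434, plus strand): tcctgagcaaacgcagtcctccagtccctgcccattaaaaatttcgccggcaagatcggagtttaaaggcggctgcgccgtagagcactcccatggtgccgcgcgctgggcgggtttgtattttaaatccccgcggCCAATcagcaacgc
Top2a, the topoisomerase that untangles sister chromatids (chr11:99024190-99024339, minus strand): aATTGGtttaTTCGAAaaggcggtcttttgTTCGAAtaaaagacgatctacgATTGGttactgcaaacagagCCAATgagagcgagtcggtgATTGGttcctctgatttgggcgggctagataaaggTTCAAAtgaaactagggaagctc
Cdc6, the licensing factor that loads the helicase with CDT1 (chr11:98908001-98908150, plus strand): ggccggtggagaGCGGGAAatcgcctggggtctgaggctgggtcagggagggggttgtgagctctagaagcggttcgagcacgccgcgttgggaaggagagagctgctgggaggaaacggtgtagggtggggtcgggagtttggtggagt
Mcm7, a helicase subunit, upstream start (chr5:138171884-138172033, minus strand): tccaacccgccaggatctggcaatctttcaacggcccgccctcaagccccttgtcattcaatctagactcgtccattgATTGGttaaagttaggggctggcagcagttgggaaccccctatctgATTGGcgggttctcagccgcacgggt
Mcm7, downstream start (chr5:138171267-138171416, minus strand): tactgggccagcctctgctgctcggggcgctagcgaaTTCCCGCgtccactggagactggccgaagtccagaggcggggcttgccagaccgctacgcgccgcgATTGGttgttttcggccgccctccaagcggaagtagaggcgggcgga

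The 4 windows of genes that were higher held at least 1 CCAAT match, in Ccnb1 overlapping an E2F core, and so did both windows of Mcm7, which was lower. The Cdc6 window held an E2F core and no CCAAT, and neither promoter of Cdkn2c, whose level was higher in ES-derived libraries, held a CCAAT match. The windows lie before the RefSeq starts, but all 150 bases of the Cdc6 window and of both Mcm7 windows, 84 bases of the Ccnb1 window and 26 of the Cdk1 window fall inside the genes as GENCODE annotates them, and none of the Plk1 and Top2a windows do. In the 250 bases before the start, a CCAAT match on either strand was present in 28 of 38 member promoters (73.7%), against 34.3% of the promoters of all genes in the expression table and 33.8% of all RefSeq promoters. It was present in 8 of 8 promoters of mitotic cyclins and kinases, 9 of 11 of spindle genes, 6 of 8 of licensing genes, and 1 of 4 of G1 genes. The cell cycle homology region was present in 26.3% of member promoters, against 12.4% of the promoters of all genes in the expression table and 17.1% of all RefSeq promoters. An E2F core was present in 28.9%, against 12.3% and 7.89%, and in 5 of 8 licensing promoters. The plot of motif positions gives where each match fell. A match describes the letters of the window and is no evidence of binding in these cells.

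**Figure D2:**
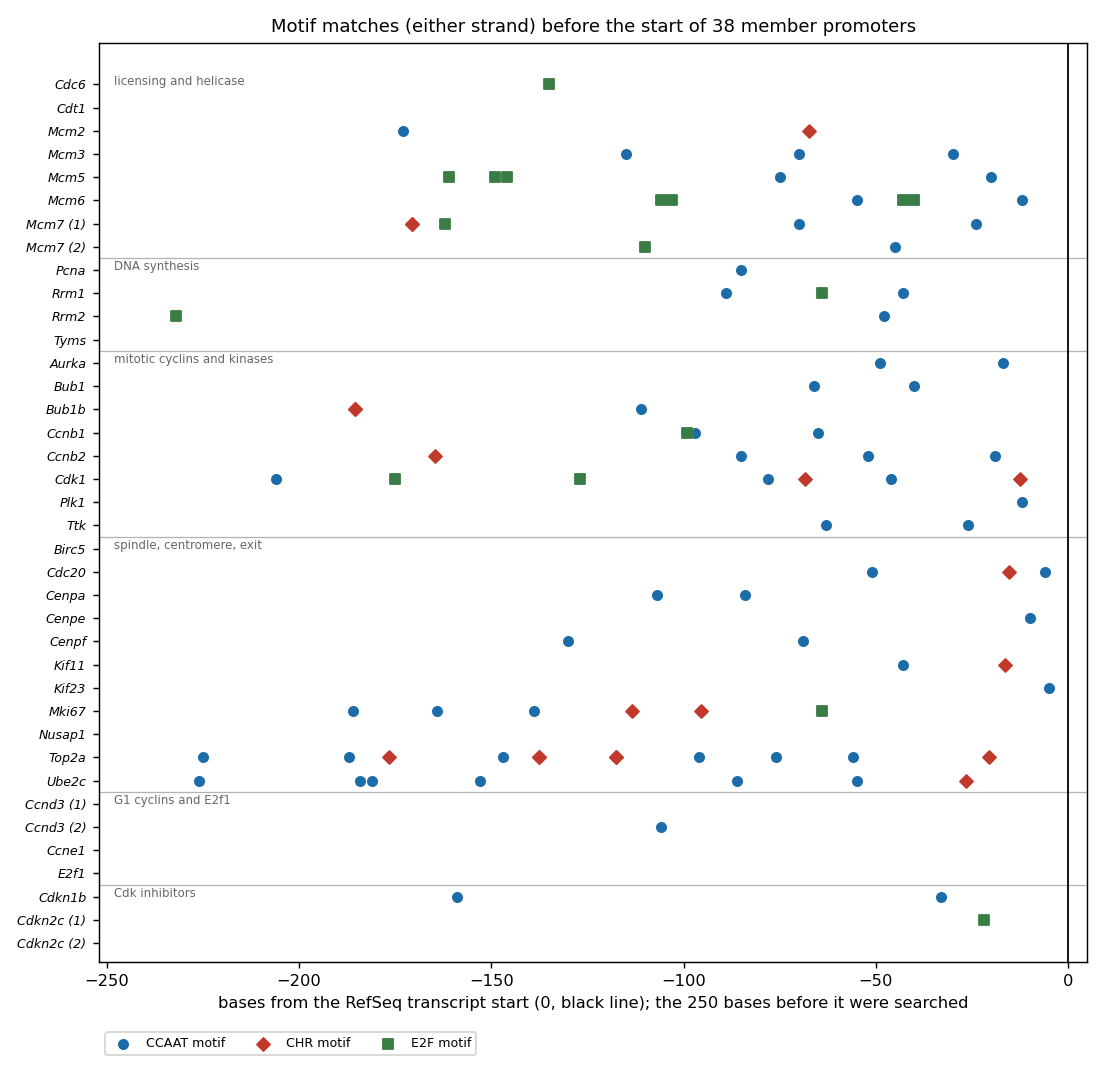
Position of each motif match (CCAAT, blue; cell cycle homology region, red; E2F core, green) in bases before the RefSeq start, for the 38 promoters of 35 members, ordered by role. Each of the 8 promoters of mitotic cyclins and kinases carries at least 1 CCAAT match, whereas 1 of the 4 G1 promoters does.

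Among mitotic cyclins and kinases, Cdk1 (annotated at chr10:69335146-69352938, GRCm38, minus strand) showed the largest difference in iNP. In eUB and iSP the largest was that of Ttk (1.01 and 1.14). The level of Cdk1 was 53.8, 61.0, 59.8 and 59.9 normalised CPM in E11.5 NP and 177, 199, 142 and 160 in iNP. It was 81.6, 83.0, 94.3 and 83.2 in E11.5 UB and 151, 131, 125 and 145 in eUB. In E11.5 SP it was 80, 69.1, 81.3 and 117, and in iSP 140, 118, 119 and 137. The ES-derived libraries lay above all E11.5 libraries in each cell type, narrowly in SP, where library E11.5 SP 4 was close to the lowest iSP library. The mean of iNP was 2.89 times that of E11.5 NP (difference 1.51 ± 0.11, SE, adjusted p = 3.1e-06), and the differences were 0.68 ± 0.08 in eUB (6.5e-05) and 0.59 ± 0.15 in iSP (0.0061).

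Ccnb1 was close to the same level in all E11.5 groups and in all ES-derived ones. It was 47.9, 52.7, 48.2 and 50.3 in E11.5 UB, 50.3, 57.1, 51.3 and 56.3 in E11.5 NP, and 54.9, 44.7, 51.2 and 69.3 in E11.5 SP. In the ES-derived groups it was 102, 89.6, 93.6 and 98.7 (eUB), 123, 87.9, 106 and 121 (iNP), and 108, 93.6, 102 and 113 (iSP). No E11.5 library reached the lowest ES-derived library, and the ratio of means was 1.93, 2.04 and 1.90, with adjusted p = 3e-06, 5.7e-05 and 0.00016.

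Plk1 was also higher in all 3. It was 85.2, 81.8, 82.6 and 86.8 in E11.5 UB against 149, 119, 117 and 115.23 in eUB, 77.5, 72.0, 62.2 and 58.8 in E11.5 NP against 177, 182, 164 and 176 in iNP. In SP it was 69.0, 67.6, 71.4 and 77.7 at E11.5 against 166, 148, 152 and 154 in iSP. The differences were 0.56 ± 0.09, 1.36 ± 0.10 and 1.11 ± 0.07 (adjusted p = 0.00043, 3.5e-06 and 1.8e-06). Ttk, the spindle checkpoint kinase MPS1, was 23.8, 21.6, 26 and 23.3 in E11.5 UB against 38.2, 49.8, 53.6 and 55.2 in eUB, and 23.8, 23.0, 23.8 and 27.0 in E11.5 SP against 52.1, 54.4, 56.2 and 57.2 in iSP. Again the groups did not overlap, and the differences were 1.01 ± 0.12 (adjusted p = 5.7e-05) and 1.14 ± 0.08 (2.4e-06). In NP, Ttk was 28.8, 33.9, 32.2 and 36.4 at E11.5 and 60.2, 46.1, 57.3 and 62.1 in iNP (0.76 ± 0.12, adjusted p = 0.00036).

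The remaining kinases and cyclins differed in size. Aurkb, the kinase of the chromosomal passenger complex, was higher by 0.87 in eUB, 1.21 in iNP and 0.98 in iSP. Aurka, the centrosome kinase, was higher by 0.42, 0.91 and 0.48, and Bub1b, the checkpoint protein BUBR1, by 0.35, 0.40 and 0.73. Ccnb2, cyclin B2, passed in eUB (0.52) and iNP (1.04) and did not in iSP (0.40, adjusted p = 0.064), and Ccna2, cyclin A2, passed in eUB only (0.30), with 0.11 in iNP and 0.23 in iSP. Bub1, a checkpoint kinase of the kinetochore, did not pass in any cell type (0.11, -0.16 and -0.23). Whether these differences were unequal between cell types is given with the tests of that further on.

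**Figure D3:**
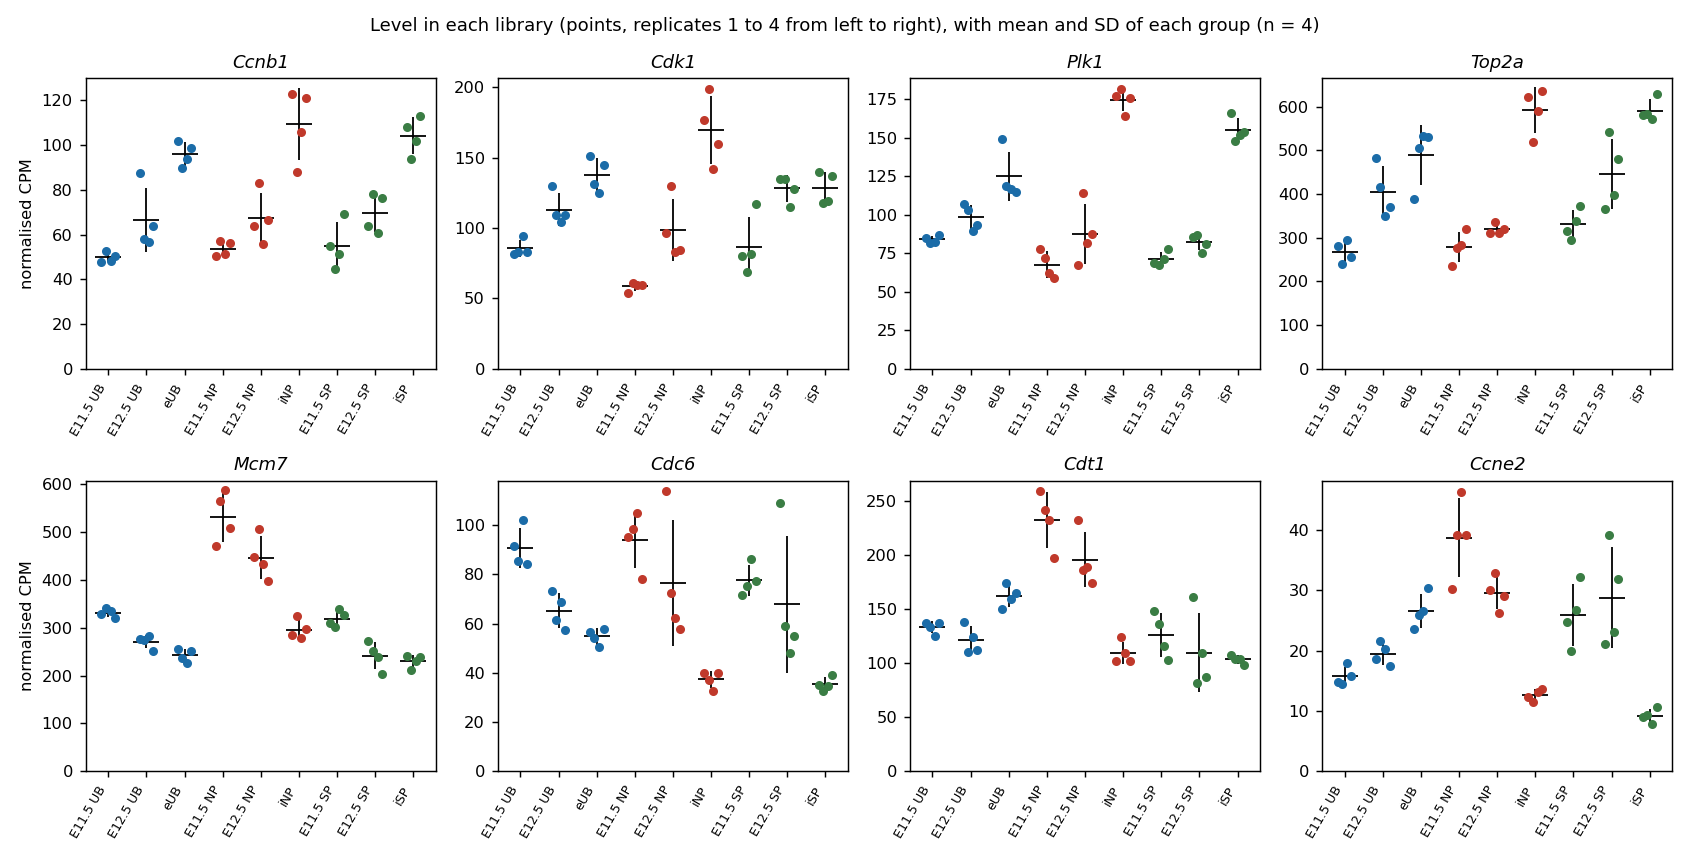
Normalised CPM (linear axis from 0) of 4 mitotic genes (Ccnb1, Cdk1, Plk1, Top2a) and 4 replication or S phase genes (Mcm7, Cdc6, Cdt1, Ccne2) in each of the 36 libraries, by group. Ccnb1 and Plk1 of every ES-derived library lie above those of every E11.5 library of the same cell type, and Cdc6 lies below.

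Among spindle, centromere and exit genes, 5 of 13 were called higher in eUB (38.5%, beside 32.1% of all genes), 9 in iNP (69.2%, beside 35.5%) and 5 in iSP (38.5%, beside 35.5%), and the single member called lower was Cdc20 in eUB. Top2a was 282, 240, 295 and 255 in E11.5 UB and 388, 506, 533 and 531 in eUB. It was 236, 276, 283 and 321 in E11.5 NP and 622, 519, 590 and 636 in iNP. For SP the values were 315, 294, 339 and 373 at E11.5 and 580, 583, 571 and 629 in iSP. The groups did not overlap in any cell type, and the means were 1.83, 2.12 and 1.79 times higher (adjusted p = 0.00014, 2.8e-05 and 2.9e-05). Kif20a, a kinesin of cytokinesis, was higher by 0.46, 0.92 and 0.71 in eUB, iNP and iSP, and Ube2c by 0.27, 1.07 and 0.65. Cdc20, the activator of the anaphase-promoting complex, was lower in eUB by 0.61 ± 0.08 (114 against 174 normalised CPM, adjusted p = 9.8e-05) and differed by 0.01 in iNP and -0.07 in iSP, neither passing. Cenpa, the centromeric histone H3 variant, passed in iNP (0.76) and not in eUB (0.00) or iSP (0.30), and Tpx2, a spindle assembly factor, passed in iNP (0.47) and not in eUB (0.10) or iSP (0.23). Of Birc5 (survivin), Kif11, Kif23 and Nusap1, all proteins of the spindle or midzone, each passed in at least 1 of the 3 comparisons, always as higher. Most genes passed in at least 1, in some direction, since 10% of all genes were called in none of the 3.

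Mki67, the common proliferation marker, varied more within groups than any other member. It was 12.5, 238, 432 and 342 in eUB and 141, 146, 161 and 139 in E11.5 UB. In iNP it was 114, 63.5, 194 and 181, against 256, 84.7, 72.9 and 115.08 in E11.5 NP, and 41.0, 203, 129 and 106 in iSP and 270, 359, 85.0 and 16.4 in E11.5 SP. At E12.5 it was 226, 378, 323 and 287 in UB, 455, 6.45, 352 and 263 in NP, and 501, 88.3, 302 and 272 in SP. The highest library was 70.6 times the lowest within E12.5 NP, whereas the largest such fold within a group had a median of 1.56 over the 44 members. The next members in this order were Cenpe (21.0 times, E12.5 NP) and Cenpf (10.4 times, eUB), a kinetochore motor and a kinetochore protein, and no other member exceeded 3 times. The longest annotated transcripts of these genes were 10.06 kb (Mki67), 7.91 kb (Cenpe) and 11.13 kb (Cenpf), the only members over 7 kb.

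Over 1147 genes with transcripts over 7 kb, the median deviation of a library from the mean of all libraries was -1.06 in iNP 2, -0.50 in eUB 1, -0.30 in E12.5 NP 2, -0.27 in iSP 1 and -0.19 in E11.5 SP 4 on the log2 scale. The same libraries held the lowest Mki67 of their groups. Relative to the median of the other libraries of the same group, the deviation was -0.98 in iNP 2, -0.61 in eUB 1, -0.47 in E11.5 SP 4 and -0.46 in E12.5 NP 2, and these 4 were taken as low, with no cut fixed beforehand. The next were E12.5 SP 1 (-0.32), E12.5 NP 1 (-0.24) and iSP 1 (-0.22). Of these, E12.5 SP 1 and E12.5 NP 1 held the highest Mki67 of their groups (501 and 455). The lowest Mki67 of E12.5 SP was in E12.5 SP 2 (88.3), with a deviation of -0.07. The plot of long mRNAs shows them together. No correlation is given a p, since all points come from the same libraries.

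**Figure D4:**
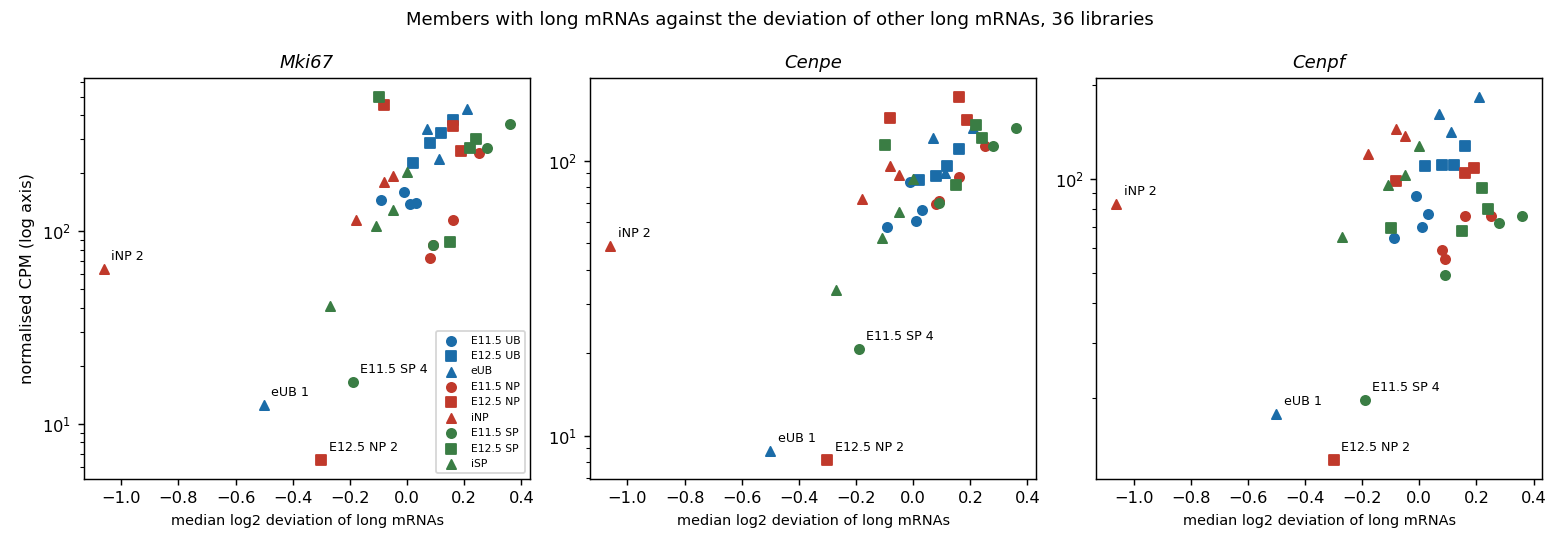
Normalised CPM of Mki67, Cenpe and Cenpf (log axis) against the median log2 deviation of mRNAs over 7 kb (horizontal axis) in the 36 libraries, coloured by cell type and shaped by source. Libraries eUB 1, E12.5 NP 2 and E11.5 SP 4 lie lowest for all 3 genes, and iNP 2 lies furthest to the left.

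Without libraries eUB 1, E12.5 NP 2, E11.5 SP 4 and iNP 2, a choice made after seeing the data, the difference of Mki67 in eUB against E11.5 UB moved from 0.01 to 1.16 (adjusted p = 9.8e-06) and that of Cenpf from 0.32 to 1.10 (6.7e-07). That of Cenpe moved from -0.13 to 0.76 (0.00019). In iNP against E11.5 NP, Mki67 moved from 0.12 to 0.45 (adjusted p = 0.30) and Cenpf from 0.83 to 1. In iSP against E11.5 SP, Mki67 moved from -0.07 to -0.96 (adjusted p = 0.15), Cenpe from -0.28 to -0.84 (0.027) and Cenpf from 0.96 to 0.55 (0.044). In SP this left out the E11.5 library but kept iSP 1, which had the lowest Mki67, Cenpe and Cenpf of iSP. Without iSP 1 as well, the differences in iSP were -0.52 for Mki67 (adjusted p = 0.36), -0.6 for Cenpe (0.054) and 0.73 for Cenpf (0.0057). The eUB value of all 3 genes rested on one library. Against E12.5 the same exclusion moved Mki67 in iNP from -0.07 to -1.13 (adjusted p = 0.0091) and Cenpe from 0.00 to -0.82 (0.0018), both lower in iNP, and Cenpf from 0.93 to 0.36 (0.014). In eUB against E12.5 UB, Mki67 moved from -1.02 to 0.13 (adjusted p = 0.65), Cenpe from -0.63 to 0.26 (0.16) and Cenpf from -0.30 to 0.48 (0.0044). Without the 4 libraries 38 members were called in eUB, 36 of 43 tested in iNP and 30 in iSP, beside 70.7%, 72% and 72.4% of all genes.

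The 8 licensing and helicase genes with their highest mean in E11.5 NP were the 8 called lower in iNP. Mcm7 (chr5:138164583-138172422, GRCm38, minus strand) was 470, 564, 588 and 508 normalised CPM in E11.5 NP, 284, 324, 278 and 297 in iNP, 329, 342, 335 and 321 in E11.5 UB, 255, 236, 227 and 251 in eUB, 310, 302, 339 and 326 in E11.5 SP, and 241, 212, 230 and 238 in iSP. The E11.5 libraries lay above the ES-derived ones in each cell type, with ratios of 1.80, 1.37 and 1.39 for NP, UB and SP (adjusted p = 5.8e-05, 0.00023 and 4e-04). Cdc6 was 95.4, 98.3, 105 and 78.1 in E11.5 NP and 40.1, 37.2, 32.6 and 39.9 in iNP. It was 91.6, 85.6, 102 and 84.1 in E11.5 UB and 56.7, 54.2, 50.4 and 58.0 in eUB, and 71.6, 75.2, 86.2 and 77.2 in E11.5 SP and 34.9, 32.6, 34.7 and 39.3 in iSP. No library of one source overlapped the other, and E11.5 cells held 2.51, 1.66 and 2.19 times the level of iNP, eUB and iSP (adjusted p = 9.2e-06, 4.9e-05 and 4.9e-06).

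Cdt1, which loads the helicase together with CDC6, went both ways. It was 259, 241, 232 and 197 in E11.5 NP and 102, 124, 109 and 102 in iNP, a lower level by 1.08 ± 0.11 (adjusted p = 2e-05). It was 137, 133, 125 and 137 in E11.5 UB and 150, 174, 159 and 165 in eUB, a higher level by 0.28 ± 0.07 (0.0062). In SP it was 148, 136, 116 and 103 at E11.5 and 107, 104, 104 and 97.8 in iSP, groups that overlapped (-0.27 ± 0.11, adjusted p = 0.058). Mcm2 showed the same pattern: 423, 474, 466 and 447 in E11.5 NP, 312, 242, 321 and 322 in iNP, 304, 290, 317 and 287 in E11.5 UB, and 399, 362, 326 and 338 in eUB. It was lower in iNP by 0.60 (adjusted p = 0.00089), higher in eUB by 0.25 (0.023), and differed by 0.10 in iSP (0.34), where the libraries were 337, 293, 329 and 330 against 282, 271, 322 and 328.

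Mcm5 was lower in iNP (283, 303, 281 and 287 against 466, 464, 480 and 436, difference -0.68 ± 0.08) and in iSP (292, 258, 286 and 272 against 397, 351, 351 and 376, -0.41 ± 0.08), with adjusted p = 4.9e-05 and 0.0011. In UB it was 394, 375, 355 and 357 in eUB and 373, 380, 374 and 379 at E11.5, overlapping groups with a difference of -0.03 ± 0.06. Mcm4 was lower in iNP by 1.04 and in iSP by 0.61, and Mcm6 lower in iNP by 0.79 and in eUB by 0.35. Mcm3 was lower in iNP by 0.41 and in eUB by 0.23. Gins2, a subunit of the GINS complex that completes the active helicase, was the one licensing or helicase gene not called in iNP. It was 59.7, 47.3, 42.0 and 46.3 in eUB against 31.4, 34.8, 37.2 and 32.7 in E11.5 UB (0.50 ± 0.11, adjusted p = 0.0031), and differed by -0.11 in iNP and -0.02 in iSP. Its annotated exons share 2758 bases with Gse1 on the opposite strand, and Gse1 had a mean of 185 in eUB and 241 in E11.5 UB.

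Of the DNA synthesis genes, 2 of 4 were called in eUB, 1 in iNP and 2 in iSP (50%, 25% and 50%, beside 60.5%, 64.7% and 67.6% of all genes). Pcna was 181, 182, 195 and 164 in E11.5 UB and 227, 210, 192 and 224 in eUB, groups that overlapped narrowly (0.24 ± 0.08, adjusted p = 0.027). It was 209, 282, 262 and 251 in E11.5 NP against 194, 253, 190 and 203 in iNP. In SP it was 188, 149, 181 and 217 at E11.5 against 193, 158, 179 and 190 in iSP, and neither difference passed (-0.25 and -0.02). Rrm2, the regulated subunit of ribonucleotide reductase, was lower in iNP (232, 229, 221 and 241 against 288, 325, 352 and 283, adjusted p = 0.0027) and in iSP (220, 194, 210 and 215 against 285, 232, 262 and 266, 0.0077). In UB it was 161, 158, 145 and 165 against 161, 150, 184 and 165 (-0.07). Rrm1, the large subunit, was higher in eUB (0.52) and iSP (0.42) and differed by 0.07 in iNP. Tyms, thymidylate synthase, differed by at most 0.08 in size in the 3 comparisons and passed in none.

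Of the G1 cyclins, Ccnd1, Ccne1 and Ccne2 were called in opposite directions in different cell types. D-type cyclins sense growth signals and activate CDK4 and CDK6. Ccnd1 (chr7:144929931-144939925, GRCm38, minus strand) was 121, 136, 129 and 167 in E11.5 NP and 584, 542, 618 and 622 in iNP. It was 200, 186, 204 and 263 in E11.5 SP and 156, 92.1, 115.03 and 116 in iSP, and 600, 581, 613 and 563 in E11.5 UB and 447, 402, 365 and 373 in eUB. The mean of iNP was 4.28 times that of E11.5 NP (difference 2.10 ± 0.11, adjusted p = 4e-07) and close to that of E11.5 UB (591 and 589), whereas iSP and eUB were lower than their E11.5 counterparts by 0.84 ± 0.16 (0.0013) and 0.57 ± 0.08 (0.00019). The exons of Ccnd1 share 1100 bases with Oraov1 on the opposite strand, whose group means lay between 18.6 and 25.8.

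Ccnd2 was 984, 895, 927 and 943 in E11.5 UB and 707, 678, 625 and 574 in eUB (-0.54, adjusted p = 0.00035), and 554, 558, 569 and 725 in E11.5 SP and 478, 395, 424 and 454 in iSP (-0.45, 0.0048). In NP it was 408, 427, 408 and 450 at E11.5 and 492, 306, 534 and 530 in iNP, where library iNP 2 lay below all E11.5 libraries and the other 3 above (0.10, adjusted p = 0.61). Ccnd3 was 249, 236, 195 and 264 in E11.5 UB and 102, 85.9, 80.1 and 77.9 in eUB, so that E11.5 UB held 2.73 times as much (-1.43 ± 0.12, adjusted p = 4.6e-06). It was 273, 251, 254 and 247 in E11.5 NP and 200, 233, 216 and 193 in iNP (-0.29, 0.017). In SP it was 350, 357, 342 and 459 at E11.5 and 345, 314, 317 and 317 in iSP (-0.21, 0.096). All 3 D-type cyclins were thus lower in eUB than in E11.5 UB.

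**Figure D5:**
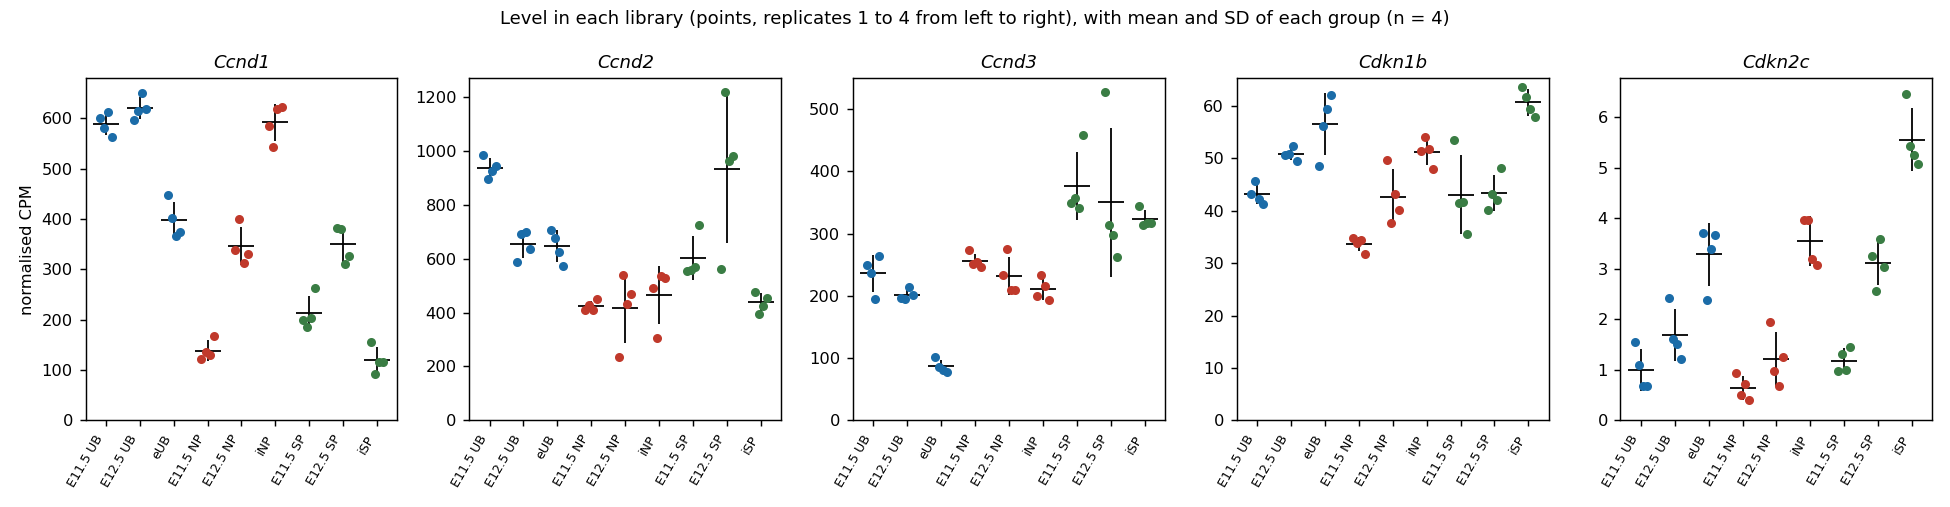
Normalised CPM (linear axis from 0) of the D-type cyclins Ccnd1, Ccnd2 and Ccnd3 and of the inhibitors Cdkn1b and Cdkn2c in each of the 36 libraries, by group. Ccnd1 is between 542 and 622 in iNP and between 92.1 and 156 in iSP, and Cdkn2c is highest in iSP at 5.07 to 6.47.

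Of the E-type cyclins, which activate CDK2 at the start of S phase, Ccne2 had the larger differences. It was 14.8, 14.5, 17.9 and 15.7 in E11.5 UB and 23.5, 25.8, 26.5 and 30.3 in eUB, 30.2, 39.1, 46.2 and 39.1 in E11.5 NP and 12.3, 11.5, 13.2 and 13.7 in iNP. For SP the values were 24.8, 19.9, 26.7 and 32.2 at E11.5 and 8.99, 9.35, 7.79 and 10.6 in iSP. None of these pairs of groups overlapped. The mean was 1.68 times higher in eUB, while E11.5 NP and SP held 3.05 and 2.82 times the level of iNP and iSP (adjusted p = 0.00022, 9.2e-06 and 3e-05). The exons of Ccne2 share 609 bases with Ints8 on the opposite strand, and the mean of Ints8 was 134 in E11.5 NP and 56.7 in iNP, 89.8 in E11.5 SP and 63.3 in iSP, and 63.7 in E11.5 UB and 67.3 in eUB. Whether the counting used strand is not given in the sources used here, and its part in the Ccne2 values was not tested.

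Ccne1 was 61.4, 63.6, 54.8 and 57.6 in E11.5 UB and 75.6, 70.3, 64.8 and 69.6 in eUB (0.24, adjusted p = 0.022), 104, 113, 117 and 97.2 in E11.5 NP and 71.8, 94.5, 76.9 and 78.3 in iNP (-0.42, 0.0064). In SP it was 86.3, 82.1, 98.7 and 122 at E11.5 and 101, 85.3, 91.0 and 98.7 in iSP (-0.04, 0.81). E2f1, the transcription factor that activates replication genes, was 42.7, 43.5, 39.3 and 40.9 in E11.5 UB and 55.1, 57.9, 57.0 and 60.5 in eUB (0.46 ± 0.07, adjusted p = 0.00025). In NP it was 63.0, 55.1, 53.1 and 56.2 at E11.5 and 43.3, 59.3, 45.2 and 49.4 in iNP, and in SP 48.9, 45.9, 40.6 and 49.8 and 48.7, 48.6, 44.9 and 40.6, overlapping groups with differences of -0.21 and -0.02. In eUB, both E-type cyclins and E2f1 were higher and all D-type cyclins lower, and this division was not found in iNP or iSP.

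Both inhibitors had a higher mean in each ES-derived population than at E11.5. Cdkn1b (p27), which inhibits CDK2, was 43.3, 45.7, 42.2 and 41.3 in E11.5 UB and 48.6, 56.2, 59.5 and 62.1 in eUB, 34.8, 33.8, 34.5 and 31.8 in E11.5 NP and 51.5, 54.1, 51.8 and 47.9 in iNP. In SP it was 53.5, 41.5, 41.7 and 35.5 at E11.5 and 63.7, 61.8, 59.4 and 57.9 in iSP. No pair overlapped, and the differences were 0.38 ± 0.09, 0.59 ± 0.08 and 0.50 ± 0.12 (adjusted p = 0.0038, 0.00019 and 0.004). Cdkn2c (p18), an inhibitor of CDK4 and CDK6 (chr4:109660876-109667189, GRCm38, minus strand), was low in all groups. It was 1.55, 1.09, 0.680 and 0.676 in E11.5 UB against 3.71, 2.38, 3.39 and 3.68 in eUB, 0.935, 0.504, 0.725 and 0.410 in E11.5 NP against 3.97, 3.97, 3.19 and 3.07 in iNP. For SP the values were 0.968, 1.31, 0.993 and 1.46 at E11.5 against 6.47, 5.44, 5.25 and 5.07 in iSP. Every ES-derived library lay above every E11.5 library, and the ratios of means were 3.30, 5.52 and 4.70. No E11.5 NP library and 2 of 4 E11.5 UB and SP libraries reached 1 normalised CPM, so Cdkn2c entered these comparisons only with the ES-derived libraries, and no p is given. At these levels the log2 scale with 1 added understates the change (1.11, 1.47 and 1.59).

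The differences between ES-derived and E11.5 cells were compared between cell types by an interaction term over 16 libraries. The comparisons share libraries, so they are not independent of each other. The eUB also came from another mESC line, protocol and sort than iNP and iSP. In both tests with UB, cell type therefore cannot be told apart from these. Between UB and NP, the change differed for 27 members (61.4%, beside 47.1% of all genes, 22.3% higher and 24.9% lower): 14 were more positive in eUB and 13 in iNP. The former included 8 of 9 licensing and helicase genes, 3 of 4 DNA synthesis genes, both E-type cyclins and E2f1, and the latter included Cdk1, Plk1, Aurka, Aurkb and Ccnb2, and the D-type cyclins. The smallest p-values were those of Ccnd1 (-2.67 ± 0.14, adjusted p = 3.2e-10), Ccne2 (2.24 ± 0.17, 2.6e-08) and Cdt1 (1.36 ± 0.13, 2.7e-07). Under upper-quartile scaling the division was 9 and 15.

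Between UB and SP, the change differed for 11 members (25%, beside 47.4% of all genes, 24.2% higher and 23.3% lower), 7 more positive in eUB and 4 in iSP. They were led by Ccne2 (2.11 ± 0.19, adjusted p = 1.6e-07), Ccnd3 (-1.22 ± 0.16, 1.1e-05) and Plk1 (-0.55 ± 0.11, 0.00093), and 5 of the 11 were licensing or helicase genes. Under upper-quartile scaling the division was 5 and 5, and under quantile normalisation 5 and 6. Between NP and SP it differed for 9 members (20.5%, beside 29.3% of all genes, 17.4% higher and 11.9% lower), 4 more positive in iNP and 5 in iSP, or 5 and 4 under upper-quartile scaling. Ccnd1 led again (2.94 ± 0.20, adjusted p = 2.8e-08), followed by Cdt1 (-0.81 ± 0.16, 0.00095) and Mcm2 (-0.70 ± 0.14, 0.0012). The mitotic genes called here, Cdk1, Ccnb2 and Aurka, were more positive in iNP, and the licensing genes called here (Mcm2, Mcm4, Mcm6, Mcm7 and Cdt1) were more negative. Without the libraries that stood apart, 29, 19 and 16 members differed between UB and NP, UB and SP, and NP and SP, beside 59.6%, 60.9% and 39.7% of all genes. Without the libraries low in long mRNAs alone, the difference of the changes between UB and SP moved from 0.08 to 2.12 for Mki67 (adjusted p = 0.01) and from 0.15 to 1.6 for Cenpe (0.0012), and without iSP 1 as well it was 1.68 (0.013) and 1.36 (0.0013).

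Against the E12.5 populations, which share the ES-derived libraries with the comparisons above, 22 members were called in eUB (16 higher and 6 lower, 50%, beside 44.4% of all genes, 23.3% higher and 21.2% lower), 23 in iNP (15 and 8, 52.3%, beside 44.3% of all genes, 25.6% higher and 18.7% lower) and 28 in iSP (17 and 11, 63.6%, beside 62.1% of all genes, 33.3% higher and 28.8% lower). The count in iNP was 22 of 43 without Cdkn2c, which passed the filter there only with the iNP libraries. Mitotic cyclins and kinases were called higher in 7, 7 and 6 of 10 (70%, 70% and 60%) and lower in none. Spindle, centromere and exit genes were called higher in 0, 6 and 7 of 13 (0%, 46.2% and 53.8%) and lower in 1, 0 and 2. The excess of higher calls in eUB thus did not extend to the spindle genes. Licensing genes were called lower in 6 of 9 in iNP (66.7%, beside 18.7% of all genes) and 3 of 9 in iSP (33.3%, near the 28.8% of all genes). In iSP another 1 was called higher, and in eUB 4 were called higher and 1 lower. Called higher against both ages in all 3 cell types were 5 of 43 members, Ccnb1, Aurka, Aurkb, Plk1 and Ttk, leaving Cdkn2c aside, beside 7.08% of the 12570 genes tested in all 6 comparisons. The ratios of means were smaller for most of them: for Plk1 they were 1.27, 1.99 and 1.89 in eUB, iNP and iSP against E12.5, and for Ccnb1 1.44, 1.63 and 1.5. No member was called lower against E12.5 in all 3 cell types, beside 5.82% of those genes.

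Cdk1 was 130, 109, 104 and 109 in E12.5 UB, 96.7, 130, 83.1 and 84.7 in E12.5 NP, and 135, 135, 115.29 and 128 in E12.5 SP. It was higher in iNP by 0.79 (adjusted p = 0.0043) and in eUB by 0.28 (0.038), and in iSP the difference was 0.00 ± 0.09 (0.99), although against E11.5 SP it was 0.59. Mcm7 in eUB and iSP (-0.16 and -0.06) and Cdc6 in eUB (-0.24) did not pass against E12.5. Cdc6 was 73.2, 61.3, 68.7 and 57.4 in E12.5 UB, 114, 72.6, 62.2 and 57.7 in E12.5 NP, and 109, 59.2, 48.2 and 54.9 in E12.5 SP. The highest of these in NP and SP were the libraries E12.5 NP 1 and E12.5 SP 1, which were also high in stress genes. Cdc6 was lower by 0.97 in iNP (adjusted p = 0.0039) and by 0.85 in iSP (0.008).

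Ccnd1 was 597, 614, 651 and 618 in E12.5 UB, 339, 400, 313 and 331 in E12.5 NP, and 381, 380, 311 and 327 in E12.5 SP. The iNP level was 1.71 times that of E12.5 NP (0.78 ± 0.12, adjusted p = 0.00058), a smaller ratio than against E11.5, and E12.5 SP held 2.92 times the level of iSP (2e-05). Ccnd3 stayed lower in eUB (E12.5 UB held 2.33 times as much, with 197, 195, 214 and 201, adjusted p = 2.6e-05). Ccne2 was 18.6, 21.6, 20.2 and 17.5 in E12.5 UB, and it was higher in eUB by 0.43 (adjusted p = 0.012) and lower in iNP and iSP by 1.16 and 1.51 (7.9e-05 and 0.00011). Cdkn2c was 2.42, 1.61, 1.51 and 1.21 in E12.5 UB, 1.94, 0.981, 0.679 and 1.26 in E12.5 NP, and 3.25, 2.56, 3.59 and 3.03 in E12.5 SP. Its differences in eUB and iSP, both 0.68, passed (adjusted p = 0.012 and 0.0011). In iNP the difference was 1.06, with no p given, since 2 of 4 E12.5 NP libraries reached 1 normalised CPM. In eUB the library values of Cdkn2c overlapped those of E12.5 UB narrowly, at 2.38 against 2.42.

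The next question was how the members differed with age, with UB ages taken from the titles. In E12.5 UB against E11.5 UB, 24 members were called, 18 higher and 6 lower (54.5%, beside 26.5% of all genes, 14.2% higher and 12.3% lower), and 30 without library E12.5 UB 1, beside 44% of all genes. The higher members included 9 of 13 spindle and centromere genes and 6 of 10 mitotic cyclins and kinases, and the lower ones were Mcm3, Mcm5, Mcm7, Cdc6, Cdc20 and Ccnd2. Mki67 had the largest difference, with 226, 378, 323 and 287 at E12.5 against 139 to 161 at E11.5 (1.02 ± 0.14, adjusted p = 0.0013). Top2a was 482, 416, 349 and 371 at E12.5 (0.59 ± 0.11, 0.0048), and Cenpf was 110, 127, 111 and 111 against 77.2, 64.8, 87.9 and 70.3 (0.62 ± 0.10, 0.0024). Cdc6 was lower by 0.47 (0.0063) and Ccnd2, at 588, 691, 698 and 637, by 0.52 (0.0013). In the fit of all 36 libraries, 9 members were called, beside 18.1% of all genes.

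In SP, 2 members were called at E12.5 against E11.5 by limma (4.55%, beside 8.52% of all genes, 3.73% higher and 4.8% lower), Ccnd1 (0.72 ± 0.14, adjusted p = 0.014) and Cdkn2c (0.91), with a higher level in both. Cdkn2c passed the filter only with the E12.5 libraries, so no p is given for it, and without it 1 of 43 members was called. At an unadjusted p under 0.05 the counts with Cdkn2c were 9 higher and 3 lower, and edgeR called 2. No share of all genes at these settings is given, so these counts are not read as a result about the members. In NP, 2 of 43 members tested were called (4.65%, beside 6.34% of all genes, 2.74% higher and 3.59% lower), Ccnd1 (1.32 ± 0.12, adjusted p = 0.0013) and Cdk1 (0.72 ± 0.14, 0.024), both higher. Again without a share of all genes beside them, the unadjusted counts were 8 higher and 3 lower, and edgeR called 2 higher and Mcm4 lower. Ccnd1 was the one member called in both. Its lowest E12.5 library lay above every E11.5 library in SP (311 against 263) and in NP (313 against 167). Without the libraries that stood apart, 16 of 44 members were called in SP (12 higher and 4 lower), beside 29.3% of all genes, and 16 of 43 in NP (8 and 8), beside 24.1%. Without the libraries low in long mRNAs alone, Mki67 in E12.5 NP against E11.5 NP moved from 0.19 to 1.57 (adjusted p = 0.047), Cenpe from -0.17 to 0.84 (0.026) and Cenpf from -0.09 to 0.64 (0.026). In the fit of all 36 libraries, which keeps every library, 12 members were called in SP (9 higher and 3 lower, beside 21.9% of all genes) and 7 in NP (5 and 2, beside 11.4%).

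Between the mesenchymal populations, E11.5 NP against E11.5 SP gave 18 called members of 43 tested, 11 higher and 7 lower (41.9%, beside 43.1% of all genes, 21% higher and 22.2% lower), or 14 and 5 under quantile normalisation. Licensing and helicase genes were higher in 6 of 9, led by Cdt1 (0.89) and Mcm7 (0.73), while Ccnd1, Ccnd2, Ccnd3, Cdk1, Ccnb2, Kif20a and Kif23 were lower in NP, the cyclins by 0.62, 0.50, 0.55 (Ccnd1 to Ccnd3) and 0.52 (Ccnb2) and Cdk1 by 0.53. At E12.5, where NP and SP samples with the same number deviated together, 10 members were called (22.7%, beside 34.8% of all genes, 17% higher and 17.8% lower), 5 in each direction (9 of 43 without Cdkn2c, lower in NP, which passed the filter only with the SP libraries), and blocking on replicate number gave 20 of 44, of which 11 were higher and 9 lower, beside 57.8% of all genes in that fit. Mcm7 (448, 507, 433 and 398 in NP against 273, 252, 238 and 204 in SP, 0.88 ± 0.13) and Cdt1 (232, 186, 189 and 174 against 161, 81.2, 109 and 86.7, 0.87 ± 0.21) were again higher in NP. Ccnd2 was 234, 540, 432 and 468 in E12.5 NP against 561, 1220, 963 and 983 in E12.5 SP (-1.16 ± 0.30, adjusted p = 0.014), and every SP library lay above every NP library. The standard errors of Mcm7, Cdt1 and Ccnd2 and this p are from the fit without the replicate block. They therefore include spread that same-numbered samples shared. Summed erythroid markers were 272 to 2780 in E12.5 SP and 3.37 to 70.3 in E12.5 NP, and their part in these differences was not tested.

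Between the ES-derived mesenchymal populations, iNP and iSP, 8 members were called (18.2%, beside 30.7% of all genes, 16.5% higher and 14.2% lower), 4 in each direction, or 4 and 2 under upper-quartile scaling and 6 and 2 under quantile normalisation. Ccnd1 was the extreme, at 542 to 622 in iNP and 92.1 to 156 in iSP (2.32 ± 0.14, adjusted p = 2.6e-06). Mcm7 (0.36), Cdk1 (0.39) and Ccne2 (0.43) were also higher in iNP, and Ccnd3 (-0.62), Cdkn2c (-0.53), Mcm4 (-0.26) and Cdkn1b (-0.24) were lower.

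E11.5 UB against E11.5 NP gave 28 called members of 43 tested (65.1%, beside 60.2% of all genes, 28.7% higher and 31.5% lower), 8 higher and 20 lower, and the lower ones held 8 of 9 licensing genes and all 4 DNA synthesis genes. Rrm2 was 150 to 184 in UB against 283 to 352 in NP (-0.92 ± 0.08, adjusted p = 1.2e-06), and Gins2 was 31.4 to 37.2 against 58.5 to 68.6 (-0.86 ± 0.08, 1.1e-06). Ccnd1 (2.09), Ccnd2 (1.15), Cdk1 (0.54) and Cdkn1b (0.35) were among those higher in UB. Against E11.5 SP, 14 members were called (31.8%, beside 53.6% of all genes, 26.8% higher and 26.7% lower), 4 higher and 10 lower, or 5 and 7 under quantile normalisation, and 2 of 9 licensing genes, Mcm4 (-0.63) and Gins2 (-0.85), were lower in UB. Ccnd1 (1.47) and Ccnd2 (0.65) were higher in UB, and Ccnd3 (-0.67), Ccne1 (-0.69) and Ccne2 (-0.67) lower. Against both mesenchymes, E11.5 UB was thus higher in Ccnd1 and Ccnd2 and lower in both E-type cyclins.

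Other genes of the same processes were taken as lists of 34 replication, 40 mitosis and 39 regulator genes. In eUB against E11.5 UB, 55% of the mitosis, 35.3% of the replication and 43.6% of the regulator genes were called higher, beside 32.1% of all genes, and 7.5%, 11.8% and 17.9% lower, beside 28.5%. In iNP against E11.5 NP, 52.5%, 17.6% and 23.7% were called higher, beside 35.5% of all genes, and 5%, 38.2% and 50% lower, beside 29.2%. In iSP against E11.5 SP, 40%, 26.5% and 30.8% were called higher, beside 35.5% of all genes, and 2.5%, 26.5% and 46.2% lower, beside 32.1%. Of the regulators, Cdkn2a in all 3 comparisons and Cdkn2b in iSP passed the filter only through the group where they were high. The condensin subunit gene Ncapd2 was 543 ± 8.24 in iSP against 147 ± 13.2 in E11.5 SP (SD, n = 4; 1.88, limma adjusted p = 1.6e-07) and 494 ± 11.5 in iNP against 170 ± 14.4 in E11.5 NP (1.54, 5.8e-07).

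Of these lists together, the 2 called genes with the largest difference per direction are named for each comparison. In eUB the p53 target genes Ccng1 (309 against 45.8, 2.73, adjusted p = 2.8e-08) and Cdkn1a, the inhibitor p21 (693 against 223, 1.63, 3.6e-07), were higher than in E11.5 UB, and the inhibitor Cdkn1c (p57) was lower (14.3 against 267, -4.14, 7.8e-09), with Mycn (47.2 against 79.9, -0.75, 4e-05). In iSP, Cdkn1a was lower (3.83 against 52.1, -3.47, 5.8e-07), as was the antiproliferative gene Btg2 (14.6 against 132, -3.06, 5.5e-07). The inhibitor locus Cdkn2a, with means of 0.0742 and 0.114 in E11.5 SP and NP, had means of 3.27 in iSP and 2.63 in iNP. It passed the filter on low values only through the ES-derived libraries, and no test is given. In iNP, Myc was lower (46.0 against 235, -2.32, 4.8e-07), and so was E2f8, a repressor of the E2F family (23.3 against 91.4, -2.02, 0.00015). Cdkn1a thus differed in opposite directions in eUB and iSP, and its change differed between UB and SP by the interaction term (5.10 ± 0.22, adjusted p = 4.4e-11). The mESC line and protocol differed between eUB and iSP as well.

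Some members share sequence with other genes. A processed pseudogene with 99.2% identity to Pcna over 781 bases, Pcna-ps2, had a median of 32.7 normalised CPM against 191 for Pcna, so reads may have been divided between them. The copies of Ccnb1, Ccnb1-ps and Gm12856, were at most 1.16 normalised CPM in any library. The exons of Mcm7 share 321 bases with Ap4m1 on the opposite strand (median 55.8), and those of Kif20a share sequence with Cdc23 (median 129). Levels of these members are uncertain to that extent.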

How the data were processed

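RNA from sorted cells was sequenced as stranded mRNA libraries from 36 samples. Per the labels and the study's methods, reads were trimmed with Cutadapt and aligned with STAR to a genome written as GRCh38, although the identifiers are mouse Ensembl genes. The counting program and its strand setting are not given in the sources used here. The deposited signal values are CPM that the authors scaled with edgeR normalisation factors, 1 column per sample, and 0 columns remained unmapped. Every value was a whole multiple of the smallest value of its library (100%, tolerance 0.01), and whole reads were recovered from these steps. Libraries held 13 to 52.5 M reads on genes. Intervals and limits of 3 reads cover counting error only. A second deposited table with the authors' group means, fold changes, p-values and false discovery rates was not used.

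Samples were grouped by title, 4 in each of 9 groups. Differences were tested with limma 3.58.1 (trend) in R 4.3.3 on log2(normalised CPM + 1), over genes that reached 1 normalised CPM in 4 or more libraries of the comparison. All p-values are two-sided and were adjusted by the Benjamini-Hochberg method over all genes tested. Cdkn2c did not pass the filter in E12.5 NP against E11.5 NP, E11.5 NP against E11.5 SP and E11.5 UB against E11.5 NP. Where it passed only through its high group, no p is given for it, but counts of called members under the alternatives include it. There were 14 comparisons of 8 libraries and 3 interaction tests of 16. The fit was also run on simulated data as a check of the code, whose outcome is not given here. The numbers of E12.5 NP and E12.5 SP samples were taken as pairs from the data, since deviations of same-numbered samples correlated at 0.543 to 0.7. For the other comparisons at least 1 such correlation was under 0.1.

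The 44 members and all lists were chosen with earlier results of these data known. Any member could be named. Values by library are given for 15 members of fixed choice and for the 2 called members with the largest difference per direction and comparison, 23 in all. For each interaction the 3 smallest p-values are given, and from the other lists 2 genes per direction and comparison with E11.5. Cenpe and Ube2c were singled out after their values were seen. Positions are from GENCODE vM21 (GRCm38), where all 44 were found. Promoters are RefSeq windows of 250 bases before to 50 after the start. Copies were searched with BLAST 2.17.0. The analyses were repeated in 9 other ways: edgeR 4.0.16 on recovered reads, all libraries in one fit, upper-quartile and quantile scaling, no filter, a minimum of 5, 0.1 in place of 1 before the log, a replicate block, and each sample left out. Another 4 ways, chosen after seeing the data, removed a trend with length and GC, the 7 libraries that stood apart, the 4 of them low in long mRNAs, or these 4 and iSP 1.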

Additional observations from a re-analysis of the deposited data

Results flagged for a closer look

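Of 207 groups of 4 libraries searched over the 23 members given by library, 13 (6.28%) held a library far from the other 3, where chance gives about 1 in 20. Mcm2 was 242 in iNP 2 (others 312 to 322) and 304 in E12.5 SP 2 (others 260 to 263). Gins2 was 46.1 in E12.5 UB 1, the library with markers of other cell types (others 32 to 34). Cdk1 was 94.3 in E11.5 UB 3 (others 81.6 to 83.2) and 53.8 in E11.5 NP 1 (others 59.8 to 61). Plk1 was 149 in eUB 1 (the highest other 119), and Ttk was 29.6 in E12.5 NP 1 (others 41.3 to 43.1).

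Cenpf was 127 in E12.5 UB 2 (others 110 to 111) and 12.6 in E12.5 NP 2 (others 98.5 to 108), the latter a library low in long mRNAs. Ccnd2 and Ccnd3 were both highest in E11.5 SP 4, at 725 (others 554 to 569) and 459 (others 342 to 357), another library low in long mRNAs. Ccnd3 was 345 in iSP 1 (others 314 to 317), and Ccne1 was 109 in E12.5 NP 2 (others 86.4 to 89.5). The part of library quality in these values was not tested.

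The change from E11.5 to ES-derived cells differed between cell types by the interaction test for 27 members (UB against NP), 11 (UB against SP) and 9 (NP against SP). In the tests with UB, the mESC line, protocol and sort differed along with cell type. The differences of the changes were -2.67 (Ccnd1), 2.24 (Ccne2) and 1.36 (Cdt1) between UB and NP, 2.11 (Ccne2), -1.22 (Ccnd3) and -0.55 (Plk1) between UB and SP, and 2.94 (Ccnd1), -0.81 (Cdt1) and -0.7 (Mcm2) between NP and SP.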

How the results depend on the processing

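Counts of called members stayed within 1.5 times in the 3 comparisons with E11.5 and the 3 with E12.5 under every alternative other than leaving out single samples. Counts in this section stand without the share of all genes called under the same setting. Where given above, that share moved with the setting too, so these counts show the stability of the calls only. In the fit of all 36 libraries the counts were 9 (E12.5 against E11.5 UB), 12 (SP) and 7 (NP), and 18 (E12.5 NP against SP). A minimum of 5 gave 1 for E12.5 against E11.5 SP. Removing the trend with length and GC gave 6 (E12.5 against E11.5 SP), 4 (NP), 17 (change in UB against SP) and 15 (NP against SP). Without the libraries that stood apart the counts were 16 (E12.5 against E11.5 SP), 16 (NP), 19 (E12.5 NP against SP), 19 (change in UB against SP) and 16 (NP against SP), and without those low in long mRNAs 8, 7, 19 and 16 for the same but E12.5 NP against SP. Without iSP 1 as well, iNP against iSP gave 14 and the change in UB against SP 18. The cause was not tested.

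With the replicate block, E12.5 NP against SP gave 20 and iNP against iSP 5, and it moved no other count by over 1.5 times. Only for the former do the numbers pair the samples, and all 4 of its pairs correlated best with their own number.

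Leaving out 1 sample at a time gave 26 to 38 (eUB), 22 to 30 (iSP) and 28 to 36 (iNP) against E11.5, 14 to 25, 23 to 29 and 20 to 26 against E12.5, 17 to 30 (UB), 1 to 9 (SP) and 1 to 7 (NP) for E12.5 against E11.5, 10 to 20 and 7 to 14 for NP against SP at E11.5 and E12.5, 5 to 11 for iNP against iSP, 26 to 29 and 9 to 14 for E11.5 UB against NP and SP, and 27 to 30, 9 to 15 and 6 to 11 for the 3 interactions. Counts moved by over 1.5 times without E12.5 UB 3 or eUB 2 (14, eUB against E12.5 UB), without E11.5 SP 1 or 3 (1), E11.5 SP 4 (8) or E12.5 SP 1 (9) in SP by age, and without any E11.5 NP library or E12.5 NP 4 (1), E12.5 NP 1 (6) or E12.5 NP 2 (7) in NP by age. They also did so without E11.5 NP 2, 3 or 4 (11, 10 and 11, E11.5 NP against SP), without iNP 1, iSP 3 or iSP 4 (5, iNP against iSP), and without E11.5 UB 1 or 4 (9, E11.5 UB against SP). Upper-quartile scaling moved the median of all genes from 0.07 to 0.24 (iNP against E11.5 NP) and from 0.04 to 0.17 (iSP against E11.5 SP), and the former count became 22 higher and 8 lower. Against E12.5, quantile scaling gave 15 higher and 3 lower in eUB, and both scalings gave 19 and 7 in iSP. No called member changed sign under any alternative run. With 3 reads at up to 0.223 normalised CPM, Cdkn2c was the member closest to the limit that depth sets.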
